A study of Homo sapiens with 18 samples.

Results

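The proteasome is the barrel-shaped protease that degrades ubiquitin-tagged proteins in the cytoplasm and nucleus. Its core particle is a stack of rings, in which the outer rings are built from alpha subunits and the inner rings from beta subunits that carry the cutting sites. A regulatory cap binds the tagged protein, removes the ubiquitin, unfolds the chain with a ring of ATPases and feeds it into the core, and activator proteins can sit on the core in place of the cap. The 38 genes described here are the protein-coding genes whose symbols are PSMA1 to PSMA7 and PSMB1 to PSMB7 (14 core genes), PSMC1 to PSMC6 and PSMD1 to PSMD14 (20 cap genes) and PSME1 to PSME4 (4 activator genes). The cap genes so named include PSMD5, PSMD9 and PSMD10, which help assemble the cap and are not in the finished particle. Every cap count, median and sum below includes these genes. All 38 were picked by symbol from 60656 gene rows, with earlier results of these data known, and each symbol had 1 row.

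The RNA came from CAMA-1 and ZR-75-1, established lines of oestrogen receptor-positive human breast cancer. Both were labelled parental and wild-type in genotype, and no group carried an edited allele. Each line was grown for 5 days with abemaciclib at 500 nM, palbociclib at 500 nM or the same volume of the solvent DMSO. Both compounds block CDK4 and CDK6, kinases that drive entry into the cell cycle. There were 3 libraries in each of the 6 line-by-treatment groups, stated in the study's methods to be independent biological replicates, and each line is a single cell line. Counts came from the 3′ ends of transcripts, so values are compared between groups for the same gene and not between genes.

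The 18 libraries held 2308442 to 4146549 counts. Levels below are in CPM, counts relative to library size, after TMM scaling, which allows for differences in composition between libraries. All 7 luminal epithelial markers examined had counts in every group. They summed to 4648 to 4941 CPM in CAMA-1 with DMSO, 6291 to 6399 with abemaciclib and 6609 to 6679 with palbociclib, and in ZR-75-1 to 5433 to 5649, 6302 to 6525 and 4905 to 5255 CPM. The 4 leukocyte genes summed to 0.23 to 11.5 CPM, the 2 endothelial genes to 0 to 0.722 CPM, the 2 basal keratins to 0 to 0.937 CPM with KRT5 at 0, and the 3 fibroblast genes to 14.4 to 33.9 CPM with PDGFRB at 0. The 4 proliferation markers (MKI67, CCNA2, RRM2 and TOP2A) all had counts and summed to 2190 to 2424 CPM in CAMA-1 with DMSO, 367 to 396 with abemaciclib and 553 to 586 with palbociclib. In ZR-75-1 they summed to 2099 to 2174, 92.4 to 108 and 857 to 907 CPM in the same order. Mitochondrial genes took a mean of 15.7% of counts in CAMA-1 under DMSO, 24.8% under abemaciclib and 23.6% under palbociclib. In ZR-75-1 these means were 20.2%, 19.5% and 19.0%. The part of proliferation and of the luminal level in the results below was not tested. With the mitochondrial genes left out of the fit, the counts of members called lower stayed at 20, 22, 16 and 12 for the comparisons in the order given next. The samples were bulk RNA, so fewer cells of a kind and less RNA per cell cannot be told apart.

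Transcripts of many proteasome subunits fell after both drugs in both lines, with 12 to 22 of the 37 tested members called lower in each comparison with DMSO. The filter on low counts kept 37 of the 38 genes in each line. PSMA6, with 120 counts over all 18 libraries and group means of 1.05 to 3.55 CPM, was not tested within a line. It overlaps another gene on the same strand, and whether its low count reflects its expression was not tested. A call is an adjusted p under 0.05 in edgeR's quasi-likelihood test, with Benjamini-Hochberg adjustment over all genes tested. Abemaciclib in CAMA-1 lowered 20 of the 37 tested members and raised 0, where 20.1% of all genes tested were called lower and 20.3% higher. DESeq2 called 15 members lower and 0 higher in that comparison, and 24 members had an unadjusted p under 0.05. The shares of all genes given throughout are of edgeR calls, and none was taken for DESeq2 or for the unadjusted p. Palbociclib in CAMA-1 lowered 22 members and raised 1, against 18.7% and 18.4% of all genes. In ZR-75-1, abemaciclib lowered 16 members and raised 3, against backgrounds of 18.3% and 17.9%. Palbociclib in ZR-75-1 lowered 12 and raised 4, against 13.4% and 14.5%. The median log2 fold change over the tested members was -0.31, -0.33, -0.21 and -0.03 for these comparisons in turn, while the median over all genes tested lay between -0.01 and 0.01. The drugs shared the DMSO libraries of their line, so their comparisons with DMSO are not independent of each other.

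**Figure D1:**
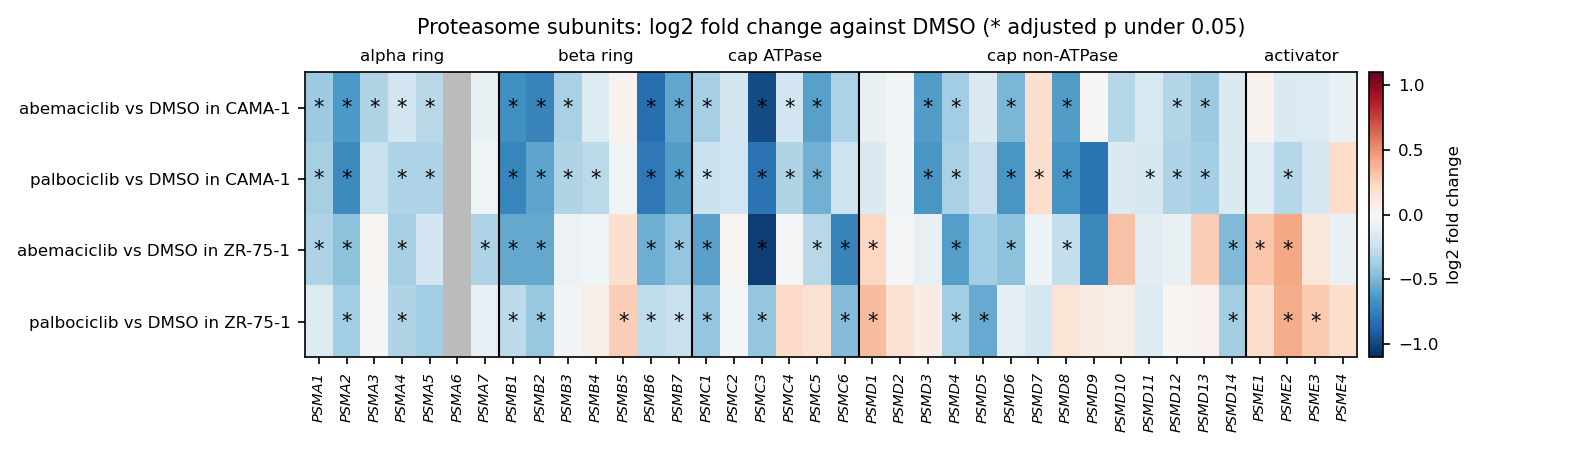
Heat map of the log2 fold change of each member (columns, ordered by assembly) for each drug against DMSO in each line (rows), blue for lower and red for higher, with asterisks at an adjusted p under 0.05 in edgeR and grey for the untested PSMA6. The CAMA-1 rows are mostly blue, with 20 and 22 members called lower, PSMC3 is the darkest column, and the activators at the right are mostly red in ZR-75-1.

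Core and cap genes were called lower in every comparison with DMSO, while the activators had 2 genes called higher with each drug in ZR-75-1 and 1 called lower, with palbociclib in CAMA-1. Of the 13 tested core genes, abemaciclib lowered 10 in CAMA-1 and 8 in ZR-75-1, and palbociclib lowered 10 and 6. Of the 20 cap genes, abemaciclib lowered 10 and 8, and palbociclib 11 and 6. All genes were called lower at 20.1% and 18.3% for abemaciclib and 18.7% and 13.4% for palbociclib. In ZR-75-1, 17.9% of all genes were called higher with abemaciclib and 14.5% with palbociclib. DESeq2 called fewer, with 8, 6, 9 and 5 core genes and 7, 7, 7 and 4 cap genes lower in the same order. Of the 4 activators, DESeq2 called 2 higher with abemaciclib and 1 with palbociclib in ZR-75-1, and 0 lower in CAMA-1. With palbociclib in ZR-75-1, 10 cap genes had a log2 fold change above 0 and 10 below it. The median log2 fold change of the core was -0.35 and -0.34 in CAMA-1 for abemaciclib and palbociclib, and in ZR-75-1 it was -0.34 and -0.25. The corresponding medians of the cap were -0.32, -0.29, -0.19 and 0.01. The activator medians were -0.11, -0.15, 0.22 and 0.24. Of the core genes tested in CAMA-1, PSMA7 and PSMB5 were called with neither drug, PSMA3 was called lower with abemaciclib alone and PSMB4 with palbociclib alone.

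The summed level of the core was 2532, 2442 and 2481 CPM in the 3 CAMA-1 libraries with DMSO, 1989, 2022 and 2048 under abemaciclib and 1988, 2000.0 and 1979.9 under palbociclib. In ZR-75-1 the core summed to 2539, 2409.5 and 2444 CPM with DMSO, 1946, 2095 and 1971 under abemaciclib and 2185, 2281 and 2228 under palbociclib. No treated library reached the lowest DMSO library of its line. The cap summed to 3119, 3074 and 3008 CPM with DMSO in CAMA-1, 2567, 2587 and 2556 under abemaciclib and 2600.3, 2547 and 2508 under palbociclib. Its sum in ZR-75-1 was 2785, 2823 and 2833 CPM with DMSO, 2356, 2413 and 2413 under abemaciclib and 2675, 2697 and 2708 under palbociclib. Here the palbociclib libraries of ZR-75-1 lay between the DMSO and the abemaciclib libraries. The core made up 44.26 to 45.20% of the core and cap sum in the CAMA-1 libraries under DMSO, 43.67 to 44.48% under abemaciclib and 43.32 to 44.11% under palbociclib. In ZR-75-1 it made up 46.05 to 47.69%, 44.96 to 46.47% and 44.96 to 45.82%. The core share with palbociclib did not overlap that with DMSO in either line, while the abemaciclib and DMSO ranges overlapped in both. These sums are weighted to the members with the most counts and were not tested. With each member weighted equally, the mean log2 of CPM plus 1 was also taken, core minus cap. It was 0.066 to 0.253 with DMSO and 0.011 to 0.171 with palbociclib in CAMA-1. In ZR-75-1 it was 0.186 to 0.306 and 0.099 to 0.188, so palbociclib overlapped DMSO in both lines.

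**Figure D2:**
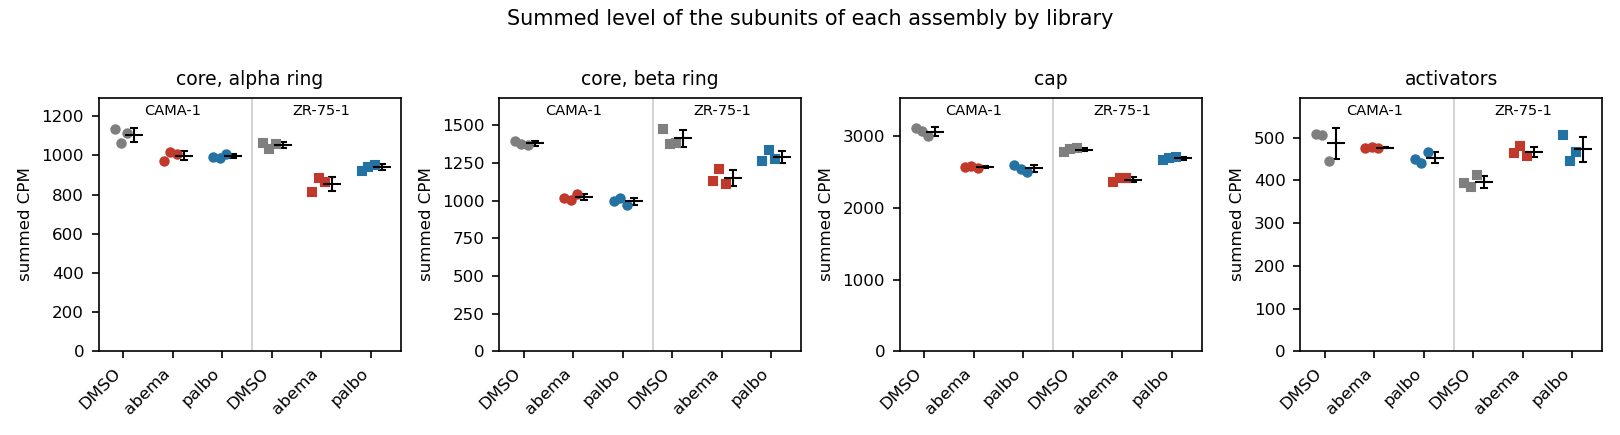
Summed TMM-scaled CPM of the alpha ring, the beta ring, the cap and the activators (panels) in each of the 18 libraries (points), with the mean and SD of the 3 libraries of a group (bars). Both ring sums and the cap sum were lower in every treated library than in the DMSO libraries of its line, and activator sums in ZR-75-1 were higher (mean 396.7 CPM with DMSO, 467 with abemaciclib and 473 with palbociclib).

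Proteasome genes are known to be switched on together when proteasome activity is short, through the transcription factor NFE2L1 and the antioxidant response element it recognises. Promoter windows from 250 bases before to 50 bases after the start site, taken from RefSeq on build GRCh38.p14, were held for 33 of the 38 members. PSMA7, PSMB1, PSMB6, PSMB7 and PSMD4 had none. Windows are printed for PSMC3, the member with the largest fall in 3 of the 4 drug comparisons, and for PSMD3, PSMD8 and PSME2, which had the largest called differences between the lines in the response to palbociclib. Capitals mark matches on either strand to TGACNNNGC (the core of the antioxidant response element), to the box CCAAT, to the GC box with letters GGGCGG, and to TTTCCCGC or TTTGGCGC (forms of the E2F site). Overlapping matches were counted for each motif on its own.
PSMC3: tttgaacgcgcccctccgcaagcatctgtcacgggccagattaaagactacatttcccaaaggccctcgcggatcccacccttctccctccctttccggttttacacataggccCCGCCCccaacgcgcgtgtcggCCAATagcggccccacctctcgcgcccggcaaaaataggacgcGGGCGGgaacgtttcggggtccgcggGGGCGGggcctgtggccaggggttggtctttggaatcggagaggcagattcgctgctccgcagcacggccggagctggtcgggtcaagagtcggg
PSMD3: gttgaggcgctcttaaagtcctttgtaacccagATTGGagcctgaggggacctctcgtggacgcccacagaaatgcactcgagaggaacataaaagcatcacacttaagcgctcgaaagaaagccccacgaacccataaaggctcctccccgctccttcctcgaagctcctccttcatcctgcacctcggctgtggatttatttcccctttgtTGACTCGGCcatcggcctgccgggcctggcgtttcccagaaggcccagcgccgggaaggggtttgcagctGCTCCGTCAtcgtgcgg
PSMD8: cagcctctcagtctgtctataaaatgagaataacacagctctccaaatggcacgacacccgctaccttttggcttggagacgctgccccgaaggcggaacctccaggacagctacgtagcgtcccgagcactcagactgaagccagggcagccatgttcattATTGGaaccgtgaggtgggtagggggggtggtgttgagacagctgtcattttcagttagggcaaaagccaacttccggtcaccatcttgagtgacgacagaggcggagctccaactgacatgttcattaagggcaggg
PSME2: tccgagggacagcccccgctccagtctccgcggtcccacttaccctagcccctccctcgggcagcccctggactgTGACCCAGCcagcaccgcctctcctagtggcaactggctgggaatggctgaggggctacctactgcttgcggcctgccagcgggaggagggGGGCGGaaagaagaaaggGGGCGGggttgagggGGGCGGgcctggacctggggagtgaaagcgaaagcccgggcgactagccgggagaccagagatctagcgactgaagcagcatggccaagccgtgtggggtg
The windows lie at chr11:47426390-47426689 on the minus strand for PSMC3, chr17:39980557-39980856 on the plus strand for PSMD3, chr19:38374321-38374620 on the plus strand for PSMD8 and chr14:24146561-24146860 on the minus strand for PSME2. PSMC3 held CCAAT from -114 to -110 and 3 copies of GGGCGG, the nearest to the start at -45. PSMD3 held TGACNNNGC from -37 to -29 and again, on the other strand, from 33 to 41, and a CCAAT on the other strand from -217. In PSMD8 the single match was a CCAAT on the other strand from -88 to -84. PSME2 held TGACNNNGC from -175 to -167 and GGGCGG at -84, -66 and -51. TGACNNNGC was present in 12 of the 33 members (36.4%) and in 16.1% of 27305 genes with a window, made up of 2 of 10 core genes, 7 of 19 cap genes and 3 of 4 activators. CCAAT was present in 17 members (51.5%, against 39.7% of all genes), GGGCGG in 22 (66.7%, against 48.3%), TTTCCCGC in 2 (6.06%, against 1.98%) and TTTGGCGC in 2 (6.06%, against 0.795%). A gene with several start sites counted once if any of its windows matched, which applied to 5 members. These matches are letters in a window and were not tested against the expression values.

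The alpha ring, which gates the entry to the core, fell in part. Abemaciclib lowered 5 of the ring's 6 tested genes in CAMA-1, where 20.1% of all genes were called lower, and palbociclib lowered 4, against 18.7%. The ZR-75-1 counts were 4 with abemaciclib (18.3% of all genes) and 2 with palbociclib (13.4%). DESeq2 called 4 genes of the ring lower with each drug in CAMA-1. For ZR-75-1 it called 2 lower with abemaciclib and 1 with palbociclib. PSMA2 and PSMA4 were called lower by edgeR in all 4 drug comparisons. PSMA2 showed the largest falls of the ring in CAMA-1, at -0.63 ± 0.16 (SE) under abemaciclib and -0.70 ± 0.15 (SE) under palbociclib on the log2 scale. PSMA7 was called with abemaciclib in ZR-75-1 alone. In CAMA-1 it stood at 606, 548 and 593 CPM with DMSO, 560.1, 573 and 562 under abemaciclib and 575, 577 and 581 under palbociclib. The treated libraries lay within the DMSO range. ZR-75-1 held 543, 529.8 and 549.7 CPM of PSMA7 with DMSO, 424, 445 and 422 under abemaciclib and 499, 510.0 and 515 under palbociclib. Abemaciclib libraries were lowest there and palbociclib libraries lay between them and DMSO. The abemaciclib change in ZR-75-1 was -0.34 (adjusted p = 5e-05, SE 0.07), and the palbociclib change was -0.09 (adjusted p = 0.31, SE 0.07).

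Of the beta ring, PSMB1, PSMB2, PSMB6 and PSMB7 fell with both drugs in both lines, while the chymotrypsin-like catalytic subunit PSMB5 did not fall with either. PSMB6 (chr17:4796144-4798502, plus strand) carries the caspase-like site. In CAMA-1, PSMB6 was measured at 231, 267 and 258 CPM with DMSO, 145, 144 and 146 under abemaciclib and 142, 155 and 153 under palbociclib. Its ZR-75-1 values were 196, 181 and 205 CPM with DMSO, 135, 141 and 126 under abemaciclib and 172, 159 and 149 under palbociclib. Treated and DMSO libraries did not overlap in either line. PSMB6 changed by -0.83 (adjusted p = 1.6e-11, SE 0.08) and -0.78 (adjusted p = 6.1e-11, SE 0.08) in CAMA-1. They were -0.54 (adjusted p = 9.3e-07, SE 0.09) and -0.28 (adjusted p = 0.0078, SE 0.08) in ZR-75-1, where the palbociclib call was lost without the palbociclib replicate 3 library (adjusted p = 0.057).

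PSMB7 (chr9:124353465-124415444, minus strand) carries the trypsin-like site. CAMA-1 libraries held 311, 300.4 and 333 CPM with DMSO, 217, 215 and 219 under abemaciclib and 224, 216 and 192 under palbociclib. In ZR-75-1 PSMB7 was at 307, 261 and 293 CPM with DMSO, 215, 221 and 206 under abemaciclib and 228, 259 and 239.5 under palbociclib. The highest palbociclib library of ZR-75-1 lay just under the lowest DMSO library, and the other groups were farther apart. PSMB7 fell, with log2 fold changes of -0.57 and -0.61 in CAMA-1 (adjusted p = 3.1e-08 and 6.1e-09) and -0.43 and -0.25 in ZR-75-1 (adjusted p = 1.1e-05 and 0.011). Without the ZR-75-1 DMSO replicate 1 library the palbociclib call in that line was lost (-0.20, adjusted p = 0.093).

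PSMB5 (chr14:23016543-23035230, minus strand) is the subunit that bortezomib inhibits. In CAMA-1 it measured 117, 109 and 120.0 CPM under DMSO, 124, 119 and 119 under abemaciclib and 112, 114 and 117 under palbociclib. The DMSO libraries overlapped both drug groups. In ZR-75-1 PSMB5 measured 165, 169 and 133 CPM with DMSO, 183, 174 and 173 under abemaciclib and 187, 194 and 186 under palbociclib. Every treated library lay above DMSO, and DMSO replicate 3 was lowest. The CAMA-1 changes were 0.04 ± 0.09 (SE) and -0.05 ± 0.09 (SE), with 95% intervals of -0.14 to 0.21 and -0.22 to 0.12. PSMB5 rose with palbociclib in ZR-75-1, at 0.27 (adjusted p = 0.013, SE 0.09), and the abemaciclib change there was 0.17 (adjusted p = 0.12, SE 0.09). The rise was no longer called without DMSO replicate 3 (0.16, adjusted p = 0.2) or without palbociclib replicate 2 (0.24, adjusted p = 0.061).

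The structural beta subunits PSMB1 and PSMB2 line the inner ring without a cutting site. PSMB1 had 193, 187 and 172 CPM in CAMA-1 with DMSO, 122, 97.8 and 129.9 under abemaciclib and 111, 126 and 105 under palbociclib. Its ZR-75-1 levels were 321, 306 and 300.2 CPM with DMSO, 200.1, 215 and 214 under abemaciclib and 246, 265 and 253 under palbociclib. All 6 groups were separate except for the drugs within CAMA-1. PSMB2 stood at 137, 144 and 111 CPM with DMSO, 82.0, 85.4 and 72.2 under abemaciclib and 83.8, 88.5 and 95.2 under palbociclib in CAMA-1. The ZR-75-1 libraries held 143, 130.1 and 117 CPM under DMSO, 78.6, 93.4 and 94.3 under abemaciclib and 102, 91.9 and 98.4 under palbociclib. No treated library reached a DMSO library of its line. PSMB1 changed by -0.68 and -0.72 in CAMA-1 and by -0.57 and -0.29 in ZR-75-1 on the log2 scale, with adjusted p values from 1e-08 to 0.002. For PSMB2 the changes were -0.74, -0.58, -0.56 and -0.42, with adjusted p values from 1.3e-07 to 0.00072. PSMB3, another structural subunit, was called lower with both drugs in CAMA-1 (-0.35 and -0.33), and both calls were lost in DESeq2 (adjusted p = 0.06 and 0.088) and without CAMA-1 DMSO replicate 1 (-0.22 and -0.19).

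**Figure D3:**
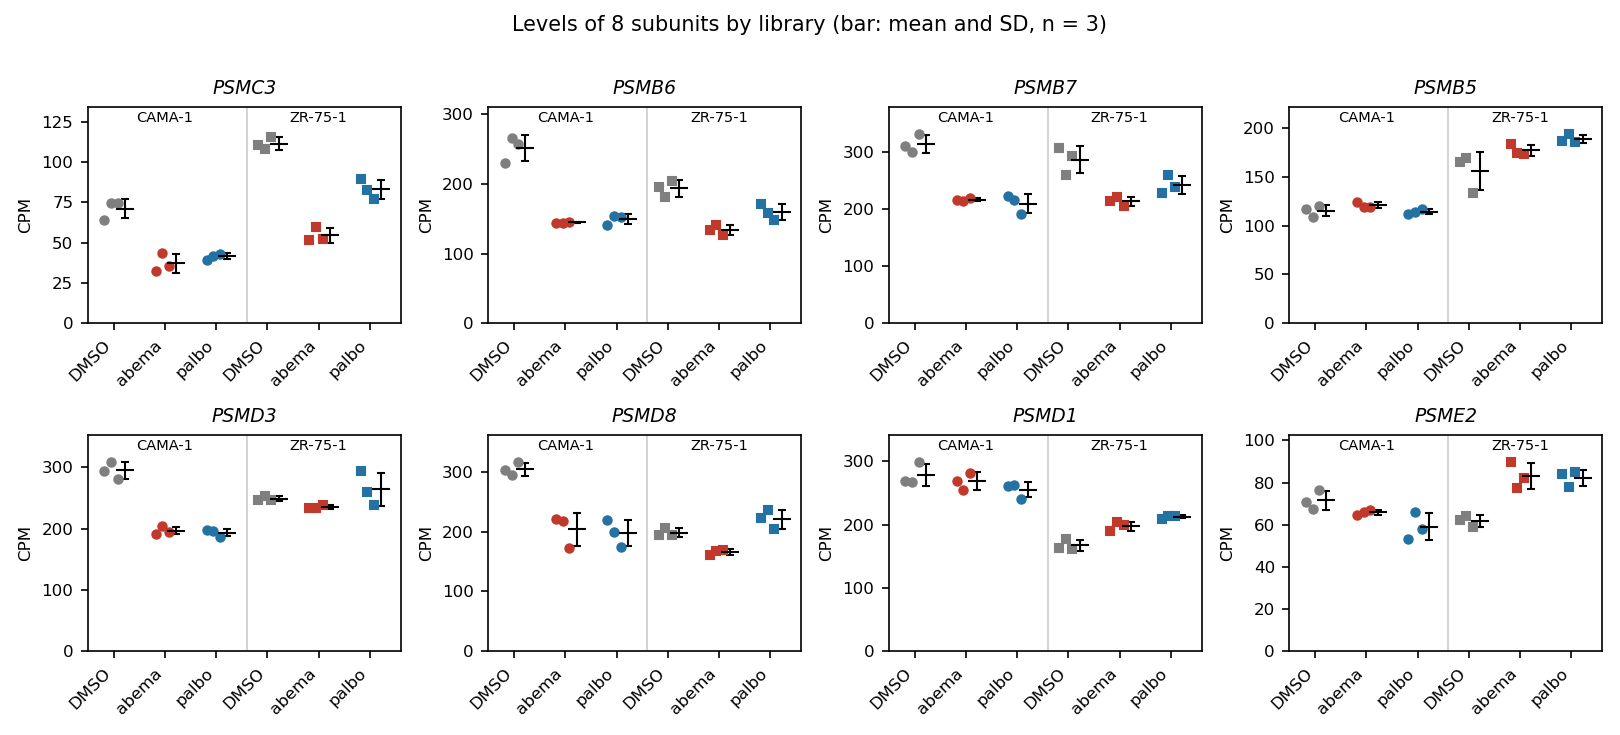
TMM-scaled CPM of 8 members in each library, in CAMA-1 (circles) and ZR-75-1 (squares), with the mean and SD of 3 libraries. PSMB6, PSMB7 and PSMC3 were lower with both drugs in both lines, while PSMB5 was called lower in neither and PSME2 was higher with both drugs in ZR-75-1.

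The ATPases PSMC1 to PSMC6 form the unfolding ring of the cap. PSMC3 (chr11:47418769-47426473, minus strand), whose promoter window is printed above, fell most of all members in 3 of the 4 drug comparisons. In CAMA-1, PSMC3 levels were 64.2, 74.3 and 74.5 CPM with DMSO, 32.6, 43.8 and 35.6 under abemaciclib and 39.5, 41.8 and 43.2 under palbociclib. In ZR-75-1 they were 110.4, 108 and 116 CPM with DMSO, 51.8, 59.7 and 52.1 under abemaciclib and 89.2, 82.7 and 77.2 under palbociclib. All treated libraries lay below the DMSO libraries of their line, and in ZR-75-1 palbociclib lay between abemaciclib and DMSO. PSMC3 changed by -0.98 (adjusted p = 3e-08, SE 0.13) and -0.81 (adjusted p = 8.6e-07, SE 0.12) in CAMA-1. In ZR-75-1 they were -1.04 (adjusted p = 1.2e-11, SE 0.11) and -0.43 (adjusted p = 0.00083, SE 0.10). These calls held in every alternative tried.

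PSMC6 fell in ZR-75-1 and PSMC5 in all comparisons but palbociclib in ZR-75-1. PSMC6 measured 39.9, 39.2 and 38.4 CPM with DMSO, 33.1, 30.0 and 30.6 under abemaciclib and 40.7, 28.2 and 33.0 under palbociclib in CAMA-1. Its levels in ZR-75-1 were 65.5, 59.8 and 48.4 CPM under DMSO, 39.1, 29.9 and 35.9 under abemaciclib and 34.2, 42.7 and 48.3 under palbociclib. Palbociclib libraries reached to just below the lowest DMSO library in ZR-75-1, and overlapped DMSO in CAMA-1. The ZR-75-1 changes were -0.74 (adjusted p = 4.9e-05, SE 0.15) and -0.48 (adjusted p = 0.0066, SE 0.14), and the CAMA-1 changes -0.35 (adjusted p = 0.055, SE 0.15) and -0.23 (adjusted p = 0.23, SE 0.14). The palbociclib call needed DMSO replicate 1 (-0.39, adjusted p = 0.073 when it was left out) and palbociclib replicate 1 (-0.35, adjusted p = 0.072). PSMC5 levels in CAMA-1 were 164, 153 and 163 CPM under DMSO, 107, 106 and 111 under abemaciclib and 124, 103 and 112 under palbociclib. In ZR-75-1, PSMC5 levels were 171, 192 and 163 CPM under DMSO, 147, 149 and 132 under abemaciclib and 194, 204 and 195 under palbociclib. Abemaciclib libraries lay below and palbociclib libraries above DMSO in ZR-75-1. The PSMC5 changes were -0.60 and -0.53 in CAMA-1 (adjusted p = 4.2e-07 and 3.6e-06) and -0.30 and 0.17 in ZR-75-1 (adjusted p = 0.0035 and 0.13). PSMC1 was called lower in all 4 comparisons (-0.37, -0.24, -0.59 and -0.42), and rows of its pseudogenes held 10.35% as many counts as PSMC1 itself. PSMC2 was called in none.

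Among the non-ATPase cap subunits, the lid subunits PSMD3 and PSMD8 fell in CAMA-1 with both drugs and did not fall with palbociclib in ZR-75-1. PSMD3 (chr17:39980807-39997959, plus strand) had 294, 309.5 and 282 CPM in CAMA-1 with DMSO, 192, 204 and 195 under abemaciclib and 198, 196 and 187 under palbociclib. ZR-75-1 libraries had 247, 253 and 247 CPM with DMSO, 234, 233 and 239 under abemaciclib and 293, 259 and 239 under palbociclib. Treated CAMA-1 libraries all lay below DMSO, and in ZR-75-1 the palbociclib libraries spread over the DMSO range. PSMD3 changed by -0.61 and -0.64 in CAMA-1 (adjusted p = 5.6e-09 and 2.2e-09), and its ZR-75-1 changes of -0.09 and 0.08 were not called (adjusted p = 0.4 and 0.48). PSMD8 (chr19:38374563-38383850, plus strand) stood at 303, 294 and 315 CPM with DMSO, 222, 218 and 172 under abemaciclib and 219, 199 and 175 under palbociclib in CAMA-1. In ZR-75-1 it stood at 195, 206 and 194 CPM under DMSO, 161, 168 and 169 under abemaciclib and 222, 236 and 204 under palbociclib. Abemaciclib libraries of ZR-75-1 lay below DMSO, while palbociclib libraries reached from within the DMSO range to above it. The PSMD8 changes were -0.61 ± 0.09 (SE) and -0.65 ± 0.08 (SE) in CAMA-1 (adjusted p = 1.3e-07 and 3.3e-08), -0.27 ± 0.08 (SE) under abemaciclib in ZR-75-1 (adjusted p = 0.0077) and 0.15 ± 0.08 (SE) under palbociclib there (adjusted p = 0.16).

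PSMD4, a ubiquitin receptor of the cap, fell in all 4 comparisons. It measured 352, 352 and 382 CPM in CAMA-1 with DMSO, 268, 294 and 289 under abemaciclib and 295, 286 and 284 under palbociclib. In ZR-75-1, PSMD4 measured 544, 487 and 552 CPM with DMSO, 336, 356 and 352 under abemaciclib and 405, 389 and 425 under palbociclib. No treated library reached DMSO in either line. Log2 fold changes were -0.38, -0.36, -0.61 and -0.38 (adjusted p = 1.9e-05, 5.1e-05, 3.1e-10 and 1.9e-05).

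PSMD14, the deubiquitinase of the lid that cuts off the ubiquitin chain, fell in ZR-75-1 and was not called in CAMA-1. CAMA-1 libraries held 55.9, 57.6 and 55.6 CPM with DMSO, 55.3, 53.2 and 45.9 under abemaciclib and 44.3, 52.4 and 59.2 under palbociclib. ZR-75-1 libraries held 69.1, 69.0 and 47.3 CPM under DMSO, 41.5, 43.8 and 48.9 under abemaciclib and 39.5, 56.3 and 48.0 under palbociclib. DMSO replicate 3 of ZR-75-1 lay among the treated libraries, so the groups overlapped. The ZR-75-1 changes were -0.48 (adjusted p = 0.0049, SE 0.14) and -0.38 (adjusted p = 0.029, SE 0.14). The abemaciclib call did not hold without DMSO replicate 1 (-0.39, adjusted p = 0.055), and the palbociclib call was lost in DESeq2 (adjusted p = 0.14) and without DMSO replicate 1, DMSO replicate 2, palbociclib replicate 1 or palbociclib replicate 3 (adjusted p = 0.17, 0.16, 0.19 and 0.058). In CAMA-1 the changes were -0.16 and -0.16, with intervals of -0.41 to 0.08 and -0.40 to 0.08.

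PSMD7, the lid partner of PSMD14, was the single member called higher in CAMA-1. With DMSO it measured 235, 204 and 234 CPM there, with abemaciclib 241, 267 and 270.2 and with palbociclib 272, 259 and 257. In ZR-75-1 PSMD7 measured 225, 207 and 206 CPM with DMSO, 209, 199 and 210.4 under abemaciclib and 195, 179.7 and 185 under palbociclib. Palbociclib libraries lay above DMSO in CAMA-1 and below DMSO in ZR-75-1. The CAMA-1 palbociclib change was 0.20 (adjusted p = 0.037, SE 0.08). It was lost in DESeq2 (adjusted p = 0.069), without DMSO replicate 2 (0.14, adjusted p = 0.21) and without any 1 of the 3 palbociclib libraries (adjusted p = 0.14, 0.059 and 0.052).

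PSMD1, a large scaffold subunit at the base of the cap, rose with both drugs in ZR-75-1. Its CAMA-1 levels were 269, 267 and 298 CPM with DMSO, 269, 255 and 282 under abemaciclib and 261, 262 and 241 under palbociclib. ZR-75-1 gave 163, 177 and 161 CPM with DMSO, 189.5, 203 and 199 under abemaciclib and 209, 213 and 214 under palbociclib. Every treated ZR-75-1 library lay above DMSO. The rises were 0.23 (adjusted p = 0.019, SE 0.08) and 0.34 (adjusted p = 0.00066, SE 0.08). The abemaciclib rise was lost without DMSO replicate 1 or 3 or abemaciclib replicate 2 or 3 (adjusted p = 0.065, 0.073, 0.065 and 0.053).

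PSMD5, PSMD9 and PSMD10 help assemble the cap base and are not part of the finished particle. PSMD5 measured 60.0, 53.2 and 48.3 CPM with DMSO, 47.1, 51.5 and 49.0 under abemaciclib and 47.6, 48.1 and 41.5 under palbociclib in CAMA-1. In ZR-75-1 it measured 27.5, 29.1 and 29.0 CPM under DMSO, 20.2, 22.9 and 22.9 under abemaciclib and 18.5, 17.3 and 22.4 under palbociclib. Treated libraries of ZR-75-1 were all below DMSO. PSMD5 fell there with palbociclib, at -0.56 (adjusted p = 0.015, SE 0.18), and the abemaciclib change was -0.38 (adjusted p = 0.092, SE 0.18). That call was lost in DESeq2 (adjusted p = 0.064) and without palbociclib replicate 2 (adjusted p = 0.064). PSMD9 and PSMD10 were called in no drug comparison, and PSMD9 had few counts, with group means of 2.45 to 7.17 CPM.

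PSMD13, another lid subunit, fell in CAMA-1 and not in ZR-75-1. It stood at 109, 111 and 114 CPM with DMSO, 96.6, 79.8 and 80.6 under abemaciclib and 91.9, 80.0 and 91.2 under palbociclib in CAMA-1. In ZR-75-1 the libraries held 28.5, 31.3 and 30.8 CPM under DMSO, 39.8, 38.9 and 30.8 under abemaciclib and 30.3, 33.2 and 30.6 under palbociclib. All ZR-75-1 values lay below every CAMA-1 value. PSMD13 changed by -0.40 and -0.38 in CAMA-1 (adjusted p = 0.00089 and 0.0016) and by 0.27 and 0.05 in ZR-75-1 (adjusted p = 0.18 and 0.86). Of the other non-ATPase genes, PSMD6 fell in CAMA-1 with both drugs and in ZR-75-1 with abemaciclib, PSMD12 fell in CAMA-1 with both drugs, PSMD11 fell in CAMA-1 with palbociclib, and PSMD2 was called nowhere. The calls for PSMD6, PSMD11 and PSMD12 were each lost in DESeq2.

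Among the activators, PSME1 and PSME2 rose with abemaciclib in ZR-75-1, and PSME2 and PSME3 rose with palbociclib. PSME1 and PSME2 form the interferon-inducible activator ring that opens the core for antigen processing. PSME1 (chr14:24136163-24138967, plus strand) measured 235, 232 and 194 CPM with DMSO, 235, 232 and 223 under abemaciclib and 212, 201 and 209 under palbociclib in CAMA-1. ZR-75-1 gave 195, 168 and 184 CPM under DMSO, 217, 244 and 216 under abemaciclib and 234, 199 and 193 under palbociclib. Abemaciclib libraries of ZR-75-1 lay above DMSO, and palbociclib libraries overlapped it. PSME1 rose with abemaciclib in ZR-75-1 (0.30, SE 0.08, adjusted p = 0.0029), and the palbociclib change was 0.20 (adjusted p = 0.071, SE 0.08).

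PSME2 (chr14:24143362-24147570, minus strand) lies near PSME1 and was the single member called in opposite directions in the lines. CAMA-1 libraries held 70.6, 67.7 and 76.5 CPM with DMSO, 64.6, 66.1 and 66.8 under abemaciclib and 53.4, 66.0 and 57.8 under palbociclib. ZR-75-1 libraries held 62.2, 64.1 and 58.7 CPM with DMSO, 89.9, 77.5 and 82.1 under abemaciclib and 83.9, 78.0 and 84.8 under palbociclib. In ZR-75-1 every treated library lay above DMSO, and in CAMA-1 every treated library lay below it. PSME2 rose by 0.42 (adjusted p = 0.0016, SE 0.11) and 0.41 (adjusted p = 0.0027, SE 0.11) in ZR-75-1, and fell with palbociclib in CAMA-1 (-0.31, SE 0.11, adjusted p = 0.021). The fall was lost in DESeq2 (adjusted p = 0.072), without DMSO replicate 3 and without palbociclib replicates 1 or 3 (adjusted p = 0.089, 0.15 and 0.058). Rows of PSME2 pseudogenes held 47.48% as many counts as PSME2, so reads may be divided between near-identical copies. Summed with those rows, PSME2 measured 86.4 to 98.2 CPM in ZR-75-1 with DMSO, 116 to 130.1 with abemaciclib and 108 to 123 with palbociclib, so both drugs stayed above DMSO and overlapped each other. In CAMA-1 the sums were 103 to 119, 93.2 to 104 and 82.3 to 94.2 CPM in the same order, so abemaciclib overlapped DMSO and palbociclib stayed below it.

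PSME3, a nuclear activator, measured 158, 157 and 132 CPM with DMSO, 139, 131 and 139 under abemaciclib and 138, 123 and 137 under palbociclib in CAMA-1. In ZR-75-1, PSME3 measured 74.7, 82.2 and 94.3 CPM under DMSO, 94.9, 93.4 and 86.8 under abemaciclib and 106, 95.3 and 106 under palbociclib. Palbociclib libraries lay above DMSO in ZR-75-1, at 0.29 (adjusted p = 0.026, SE 0.10). This rise was lost in DESeq2 (adjusted p = 0.087) and without DMSO replicates 1 or 2 or palbociclib replicates 1 or 3 (adjusted p = 0.19, 0.071, 0.071 and 0.091). PSME4, the large single-chain activator, had 44.7, 50.2 and 42.5 CPM under DMSO, 38.1, 48.9 and 47.5 under abemaciclib and 47.6, 50.4 and 63.6 under palbociclib in CAMA-1. Its ZR-75-1 levels were 61.6, 70.9 and 75.7 CPM with DMSO, 61.7, 65.7 and 72.2 under abemaciclib and 81.3, 74.3 and 82.8 under palbociclib. Within each line the groups overlapped, except abemaciclib and palbociclib in ZR-75-1, and no drug change was called (-0.07, 0.20, -0.07 and 0.19).

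Over the 4 drug comparisons, 9 members were called lower in every one: PSMA2, PSMA4, PSMB1, PSMB2, PSMB6, PSMB7, PSMC1, PSMC3 and PSMD4, of which 6 are core and 3 are cap genes. Of all genes tested in both lines, 5.48% were lower in every one. PSMB1, PSMB2, PSMC3 and PSMD4 kept all 4 calls in every alternative. PSMA2 lost its ZR-75-1 calls in DESeq2 (adjusted p = 0.061 and 0.13) and with some libraries left out. PSMA4 lost its abemaciclib call in CAMA-1 without abemaciclib replicate 1 (adjusted p = 0.16) or DMSO replicate 1 or 3 (adjusted p = 0.059 and 0.083). PSMC1 lost its palbociclib call there in DESeq2 (adjusted p = 0.096) and without DMSO replicate 1 or palbociclib replicate 2 or 3 (adjusted p = 0.2, 0.18 and 0.079). The PSMA4 and PSMC1 calls were also lost with no low-count filter and with all 18 libraries in 1 fit. No member was called higher in all 4, as 4.47% of all genes were. In all, 26 members had calls in the lower direction alone, 5 in the higher direction alone (PSMB5, PSMD1, PSMD7, PSME1 and PSME3), 1 in both (PSME2) and 6 had no call (PSMA6, PSMC2, PSMD2, PSMD9, PSMD10 and PSME4). The shares of all genes with these patterns were not taken, so these counts have no background to be read against. Both drugs lowered 19 members in CAMA-1 and 11 in ZR-75-1, against 15.6% and 10.3% of all genes. In the annotation, 18 members overlap a gene on the opposite strand (PSMA2, PSMA3, PSMB3, PSMC1, PSMC2, PSMC5, PSMD1, PSMD5, PSMD6, PSMD7, PSMD9, PSMD11, PSMD13, PSMD14 and PSME1 to PSME4), and the strand setting of the counting was not stated, so reads of such partners may be included. On the same strand, 10 members overlap another gene (PSMA1, PSMA2, PSMA3, PSMA6, PSMB5, PSMC2, PSMD1, PSMD9, PSMD14 and PSME2). How reads in such overlaps were counted was not given, so some reads of these members may be missing.

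Compared with each other, the drugs did not differ past the threshold in CAMA-1. With edgeR 0 of 37 members were called in either direction, where 0.796% of all genes were called higher with abemaciclib and 1.53% lower. DESeq2 also called 0, and 1 member had an unadjusted p under 0.05 (PSMB4, named after its values were seen, 0.15, SE 0.07, adjusted p = 0.38). The 95% intervals of the difference were wide for PSMC3 (-0.17, interval -0.44 to 0.10), PSMB6 (-0.05, interval -0.21 to 0.12), PSMB5 (0.08, interval -0.09 to 0.25) and PSME2 (0.16, interval -0.06 to 0.38). In ZR-75-1 abemaciclib left 7 members lower than palbociclib and 0 higher, against 7.94% and 5.23% of all genes. These were PSMA7, PSMB1 and PSMB6 of the core and PSMC3, PSMC5, PSMD4 and PSMD8 of the cap. PSMC3 differed by -0.61 (adjusted p = 4.1e-05, SE 0.11), PSMC5 by -0.47 (adjusted p = 3.4e-05, SE 0.08) and PSMD8 by -0.41 (adjusted p = 0.00013, SE 0.08), and these 3 held in every alternative. The other 4 differed by -0.24 (PSMA7), -0.28 (PSMB1), -0.26 (PSMB6) and -0.23 (PSMD4), and each was lost when ZR-75-1 abemaciclib replicate 1 was left out (adjusted p = 0.051, 0.064, 0.1 and 0.12), which left 3 members called. Without abemaciclib replicate 3, 4 members were called. PSMB6 was also lost in DESeq2 (adjusted p = 0.13), with RLE or upper-quartile scaling (adjusted p = 0.053 and 0.08) and with no low-count filter (adjusted p = 0.078). PSMD4 was also lost with upper-quartile scaling (adjusted p = 0.057). Each of PSMA7, PSMB1, PSMB6 and PSMD4 was lost with at least 1 other library left out. The doses were both 500 nM, and nothing in the data puts them on a scale of equal kinase inhibition.

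The line-by-drug interaction, fitted over all 18 libraries, gave the difference between the responses of the lines. For palbociclib, 11 of 38 members responded with a higher log2 fold change in ZR-75-1 than in CAMA-1 and 1 with a lower one, where 10.0% of all genes were called higher and 10.3% lower. The 11 were PSMB1, PSMB4, PSMB6 and PSMB7 of the core, PSMC4, PSMC5, PSMD1, PSMD3 and PSMD8 of the cap, and PSME2 and PSME3, and the 1 lower was PSMD7. PSMD8 differed by 0.77 (adjusted p = 7.5e-07, SE 0.12), PSME2 by 0.70 (adjusted p = 0.00039, SE 0.15), PSMD3 by 0.69 (adjusted p = 7.7e-07, SE 0.11) and PSMD7 by -0.42 (adjusted p = 0.0033, SE 0.11). The PSMB4 and PSMB7 calls were lost without ZR-75-1 palbociclib replicate 2 (adjusted p = 0.071 and 0.074) and the PSME3 call without ZR-75-1 DMSO replicate 1 (adjusted p = 0.055). For abemaciclib, 3 of 38 members were called higher (PSMD13, PSME2 and PSMD3) and 1 lower (PSMA7), against 8.19% and 10.0% of all genes, so the members were called no more often than other genes. PSMD13 differed by 0.65 (adjusted p = 0.0044, SE 0.17), PSME2 by 0.56 (adjusted p = 0.0062, SE 0.15), PSMD3 by 0.50 (adjusted p = 0.00038, SE 0.11) and PSMA7 by -0.28 (adjusted p = 0.019, SE 0.09). The PSMA7 call was lost with no filter on low counts and without 8 of the 12 libraries in turn, at an adjusted p of up to 0.19 without CAMA-1 DMSO replicate 2. The number of higher abemaciclib interactions was 8 without CAMA-1 DMSO replicate 3, 6 without CAMA-1 DMSO replicate 1 or ZR-75-1 DMSO replicate 2, and 5 without CAMA-1 DMSO replicate 2 or ZR-75-1 abemaciclib replicate 1. PSMC3 had no interaction called (-0.08, interval -0.40 to 0.25, for abemaciclib and 0.36, interval 0.05 to 0.67, for palbociclib).

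**Figure D4:**
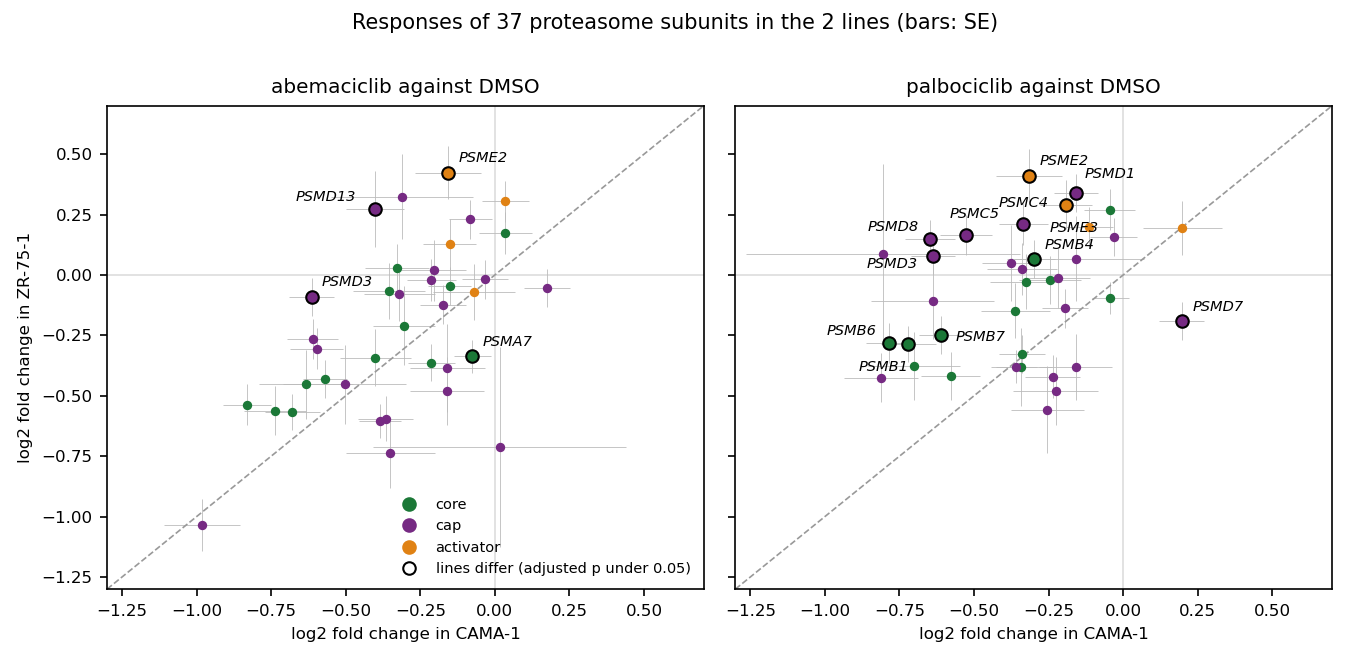
Log2 fold change against DMSO in ZR-75-1 (vertical) and CAMA-1 (horizontal) for each tested member, with abemaciclib left and palbociclib right, bars of 1 SE and a dashed line of equal response. Ringed and named members had a called interaction, 4 for abemaciclib and 12 for palbociclib, and 11 of the 12 lie above the line.

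With DMSO alone, 11 of 38 members were higher in ZR-75-1 than in CAMA-1 and 13 lower, which is near the shares of all genes called, 31.5% and 29.8%. Core genes were 5 higher and 3 lower, cap genes 5 higher and 8 lower, and activators 1 higher and 2 lower. The PSMD13 difference, from the levels given above, was -1.88 (adjusted p = 1.2e-21, SE 0.12). PSMA5 measured 125, 128 and 97.0 CPM in the CAMA-1 libraries and 34.7, 34.0 and 36.6 in those of ZR-75-1, without overlap, a difference of -1.72 (adjusted p = 2.4e-19, SE 0.12). In the other direction PSMB1 was higher in ZR-75-1 by 0.75 (adjusted p = 3.5e-12, SE 0.08), PSMC3 by 0.65 (adjusted p = 3.5e-07, SE 0.11) and PSME4 by 0.60 (adjusted p = 2.5e-05, SE 0.12). Of the catalytic subunits, PSMB5 was higher in ZR-75-1 (0.44), PSMB6 lower (-0.38) and PSMB7 not called (-0.14, adjusted p = 0.11). PSMA5 and PSMD13 were chosen here after their values were seen, as the largest differences.

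The wider pathway was read from lists of assembly factors, associated proteins, regulators of the proteasome, ubiquitin genes and shuttling factors. Assembly factors, which build the core and cap, had genes called lower in every drug comparison. Of 6 (POMP, PSMG1, PSMG2, PSMG3, PSMG4 and PAAF1), abemaciclib lowered 4 in CAMA-1 and 3 in ZR-75-1, and palbociclib lowered 3 and 1, with 0 raised in any. All genes were called lower at 20.1%, 18.3%, 18.7% and 13.4% in that order, so the single gene with palbociclib in ZR-75-1 is near the background. DESeq2 called 3, 2, 2 and 0. POMP, the chaperone that matures the core, measured 357, 381 and 356 CPM with DMSO, 261, 236 and 272 under abemaciclib and 257, 248 and 268 under palbociclib in CAMA-1. In ZR-75-1 POMP measured 203, 184 and 192 CPM under DMSO, 167, 165 and 153 under abemaciclib and 157, 166 and 179 under palbociclib. DMSO libraries were above all treated ones in both lines. POMP changed by -0.54 and -0.53 in CAMA-1 (adjusted p = 5.5e-08 and 6.5e-08) and by -0.26 and -0.21 in ZR-75-1 (adjusted p = 0.0099 and 0.044). The ZR-75-1 palbociclib call was lost in 8 alternatives, DESeq2 among them (adjusted p = 0.098), and the abemaciclib call without DMSO replicate 1 or abemaciclib replicate 3 (adjusted p = 0.071 and 0.068). PSMG3 fell in CAMA-1 (-0.65 and -0.73) and with abemaciclib in ZR-75-1 (-0.44), and PSMG2 fell with abemaciclib in CAMA-1 (-0.78).

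Calls for proteins that attach to the finished particle went both ways in CAMA-1. Of 8, abemaciclib raised 3 and lowered 1 in CAMA-1, palbociclib raised 3 and lowered 3, and in ZR-75-1 abemaciclib raised 1 and lowered 1 while palbociclib changed 0 (1 at an unadjusted p under 0.05 and 0 in DESeq2). The shares of all genes that passed were, in CAMA-1, 20.3% upward and 20.1% downward for abemaciclib and 18.4% and 18.7% for palbociclib, and for abemaciclib in ZR-75-1 they were 17.9% and 18.3%. DESeq2 called 1 lower with palbociclib in CAMA-1, where UCHL5 and TXNL1 were lost (adjusted p = 0.091 and 0.12), and 0 higher with abemaciclib in ZR-75-1, where USP14 was lost (adjusted p = 0.088). Each of these 3 calls was lost in 7 alternatives. USP14, a deubiquitinase of the cap, measured 103, 99.8 and 103 CPM with DMSO, 126, 137 and 139 under abemaciclib and 137, 129.7 and 127 under palbociclib in CAMA-1, where it rose by 0.36 and 0.34 (adjusted p = 0.00099 and 0.0018). UBE3C, a ubiquitin ligase that extends chains on stalled substrates, rose there by 0.46 and 0.32, the latter lost without DMSO replicate 1 or palbociclib replicate 3 (adjusted p = 0.054 and 0.059). ADRM1, a ubiquitin receptor like PSMD4, measured 127, 137 and 145 CPM under DMSO, 91.8, 79.8 and 93.1 under abemaciclib and 89.5, 86.8 and 89.5 under palbociclib in CAMA-1, and treated libraries lay below DMSO. ADRM1 changed by -0.65 and -0.66 in CAMA-1 (adjusted p = 1.7e-07 and 1.4e-07), -0.37 under abemaciclib in ZR-75-1 (adjusted p = 0.0017) and 0.06 under palbociclib there (adjusted p = 0.67).

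Of the regulators of the proteasome, DDI2 was called higher in all 4 drug comparisons. NGLY1 and NFE2L1 were called higher in CAMA-1, and AKIRIN2 was called lower in ZR-75-1. NFE2L1 is the factor that raises subunit genes when proteasome activity is short, NGLY1 removes its sugar chains and the protease DDI2 cuts it to the active form. Of the 5 regulators, abemaciclib raised 2 and palbociclib 3 in CAMA-1, each raised 1 in ZR-75-1, and abemaciclib lowered 1 in ZR-75-1. The shares of all genes raised were 20.3% and 18.4% for the CAMA-1 comparisons and 17.9% and 14.5% for those of ZR-75-1, and abemaciclib lowered 18.3% in the latter line. DDI2 rose in all 4 comparisons. Its CAMA-1 libraries held 61.3, 69.3 and 63.2 CPM with DMSO, 98.5, 88.8 and 115 under abemaciclib and 97.0, 104 and 101 under palbociclib. Its ZR-75-1 libraries held 50.8, 54.9 and 52.9 CPM under DMSO, 80.6, 67.7 and 71.0 under abemaciclib and 74.6, 77.3 and 64.5 under palbociclib. No DMSO library reached a treated one. The log2 fold changes were 0.62, 0.61, 0.46 and 0.44 (adjusted p = 4.9e-06, 5.4e-06, 0.0013 and 0.0025). NFE2L1 measured 51.1, 61.3 and 55.6 CPM with DMSO, 65.4, 71.2 and 66.8 under abemaciclib and 72.9, 77.1 and 66.7 under palbociclib in CAMA-1. It rose with palbociclib (0.34, SE 0.11, adjusted p = 0.013), a call lost in DESeq2 (adjusted p = 0.051), without DMSO replicate 1 and without palbociclib replicate 2 (adjusted p = 0.084 and 0.068). The abemaciclib change was 0.24 (adjusted p = 0.086), and in ZR-75-1 the changes were 0.15 and -0.03. NGLY1 rose in CAMA-1 (0.82 and 0.57), the palbociclib call being lost without DMSO replicate 1 (adjusted p = 0.055), and AKIRIN2, which carries proteasomes into the nucleus, fell with abemaciclib in ZR-75-1 (-0.84, adjusted p = 0.047), a call lost in 9 alternatives.

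**Figure D5:**
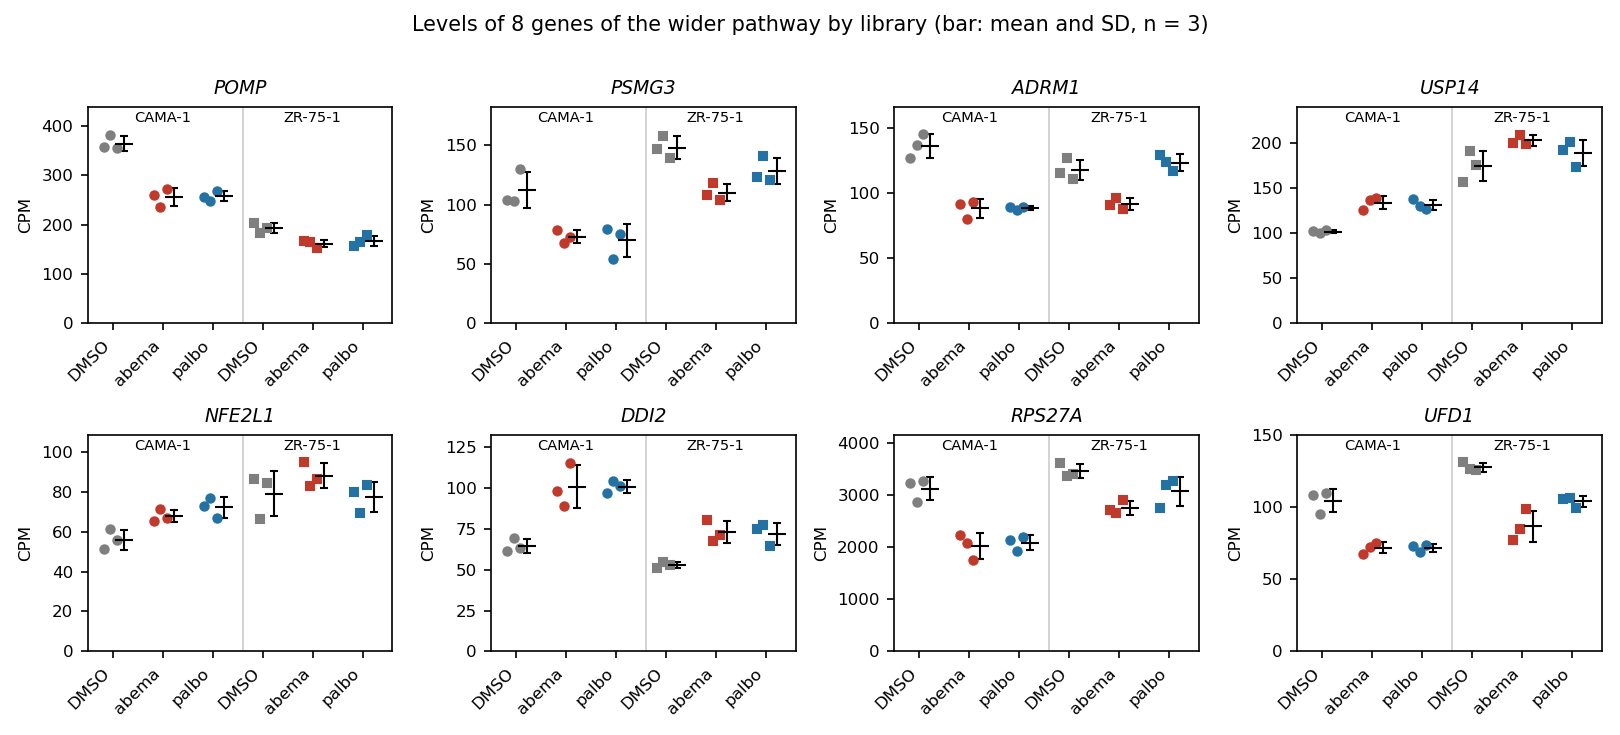
TMM-scaled CPM of 8 genes of the wider pathway in each library, in CAMA-1 (circles) and ZR-75-1 (squares), with the mean and SD of 3 libraries. POMP, RPS27A and UFD1 were lower and DDI2 higher with both drugs in both lines.

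Of the 2 ubiquitin genes reported here (UBB and RPS27A), 1 was lower with each drug in both lines, with 0 higher, where the shares of all genes lowered were 20.1% (abemaciclib) and 18.7% (palbociclib) for CAMA-1, then 18.3% and 13.4% for ZR-75-1. RPS27A, which encodes ubiquitin fused to a ribosomal protein, measured 3237, 2858 and 3270.0 CPM with DMSO, 2231, 2085 and 1747 under abemaciclib and 2135, 1917 and 2192 under palbociclib in CAMA-1. In ZR-75-1 it measured 3618, 3369 and 3396 CPM under DMSO, 2707, 2643 and 2906 under abemaciclib and 2748, 3181 and 3270.0 under palbociclib. All treated libraries lay below the DMSO libraries of their line. RPS27A fell in all 4 comparisons (-0.66, -0.62, -0.34 and -0.18), the last lost without DMSO replicate 1 or palbociclib replicate 1 (adjusted p = 0.15 and 0.26) and with all 18 libraries in 1 fit. Of the 7 shuttling factors and parts of the segregase that pulls proteins from complexes reported here, 1, 1, 2 and 3 were lower in the same order, with 0 higher. Against the same shares of all genes, the CAMA-1 counts were below the background. UFD1, a segregase adaptor, fell in all 4, with changes of -0.58, -0.58, -0.57 and -0.30. UFD1 lost its ZR-75-1 palbociclib call without DMSO replicate 1 or palbociclib replicate 3 (adjusted p = 0.054 and 0.056). The shuttle RAD23B fell in ZR-75-1 (-0.35 and -0.50). Of the pathway genes named here, POMP, PSMG2, PSMG3, PSMG4, PAAF1, ADRM1, USP14, UCHL5, TXNL1, UBE3C, NFE2L1, NGLY1, UBB, RPS27A and UFD1 overlap a gene on the opposite strand. So do PSMB8, PSMB9 and PSMA8, described next, and PSMB8 and PSMB9 overlap each other.

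The immune forms of the catalytic subunits, PSMB8, PSMB9 and PSMB10, which replace PSMB5, PSMB6 and PSMB7 in the immunoproteasome, were near the floor of detection. They held 129, 92 and 4 counts over the 18 libraries, and a count of 3 in 1 library corresponds to 0.723 to 1.3 CPM. PSMB8 was the single one tested within a line, in ZR-75-1, where its drug changes of 0.11 ± 0.47 (SE) and -0.36 ± 0.48 (SE) were not called. With DMSO it was higher in ZR-75-1 than in CAMA-1 (2.12, adjusted p = 0.0032). The tissue-restricted core genes PSMA8 and PSMB11 had no counts.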

How the data were processed

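The authors trimmed the 3′ end reads with BBDuk, aligned them with STAR 2.7.5b to hg38 and counted them per gene with featureCounts 2.0.1, per the labels and the submitters' processing notes, with a GENCODE 35 annotation. They deposited these unnormalized read counts for all 18 libraries. The strand setting, the treatment of reads with several matches and the use of molecular identifiers were not given in the sources used here. Gene coordinates and overlaps came from GENCODE 44.

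Counts were filtered with filterByExpr, scaled with TMM and tested with edgeR 4.0.16 (quasi-likelihood F test, R 4.3.3, Benjamini-Hochberg adjustment over all genes). The edgeR and DESeq2 fits, and no other step, were tried on simulated counts, for abemaciclib comparisons only. The study's own test was DESeq2. Drug comparisons used the 9 libraries of a line (11053 genes tested in CAMA-1 and 11017 in ZR-75-1), and interactions and the comparison between lines used all 18 (11987 genes). The biological coefficients of variation were 8.12%, 8.30% and 8.26%. Printed CPM share 1 TMM scale over all 18 libraries, and 95% intervals follow from the SE by the normal approximation. Total counts of 2308442 to 4146549 limited the precision, and a floor of 3 counts covers counting error only. Alternatives were RLE and upper-quartile scaling, DESeq2 1.42.0, no low-count filter, no mitochondrial genes, a replicate block, all 18 libraries in 1 fit and each library left out. Members and lists were chosen with earlier results of these data known. Values in every library were given for PSMB5, PSMB6, PSMB7, PSMD14 and the activators, and for the 3 called members with the largest rise and fall in each drug comparison and interaction. From each pathway list the 2 called genes with the largest change in each direction were named, beside PSMB8, PSMB9, PSMB10, POMP and NFE2L1. Some genes of the pathway lists are not reported here.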

Additional observations from a re-analysis of the deposited data

Results flagged for a closer look

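The responses of the lines to abemaciclib differed, by the interaction test, for 4 members and 4 genes of the wider pathway. Of all genes 8.19% were called higher and 10.0% lower, so the 3 members called higher and the 1 called lower were no more than the background. The ZR-75-1 response less the CAMA-1 response, on the log2 scale, was -0.28 for PSMA7, 0.50 for PSMD3, 0.65 for PSMD13 and 0.56 for PSME2. In the wider pathway they were -0.80 for NGLY1, -1.23 for AKIRIN2, 0.30 for RPS27A and -0.40 for RAD23B, a shuttling factor. The AKIRIN2 call was lost with no low-count filter (adjusted p = 0.055) and with any of several libraries left out. Leaving out a library also lost the NGLY1 call (adjusted p = 0.073 without CAMA-1 DMSO replicate 1) and the RPS27A call (adjusted p = 0.082 without ZR-75-1 abemaciclib replicate 3).

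For palbociclib the responses differed for 12 members (11 higher and 1 lower, where 10.0% and 10.3% of all genes were called) and 6 other genes. Core differences were 0.41 for PSMB1, 0.34 for PSMB4, 0.48 for PSMB6 and 0.34 for PSMB7. Cap differences were 0.52 for PSMC4, 0.67 for PSMC5, 0.47 for PSMD1, 0.69 for PSMD3, -0.42 for PSMD7 and 0.77 for PSMD8. Activator differences were 0.70 for PSME2 and 0.46 for PSME3. In the wider pathway they were 0.29 for POMP, 0.49 for PSMG3, 0.69 for ADRM1, -0.43 for ECPAS, 0.41 for RPS27A and -0.40 for RAD23B. The POMP call was lost with upper-quartile scaling, no low-count filter or the replicate block (adjusted p = 0.054, 0.13 and 0.057), and with any of several libraries left out. Leaving out a library also lost the PSMG3 call (adjusted p = 0.078 without CAMA-1 palbociclib replicate 2). PSMD3, PSME2, RPS27A and RAD23B differed for both drugs, whose responses share the DMSO libraries.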

How the results depend on the processing

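No member changed the sign of a called change in any alternative. Of the calls for members, 13 of 20 (abemaciclib) and 14 of 23 (palbociclib) in CAMA-1 and 14 of 19 and 8 of 16 in ZR-75-1 held in every alternative, as did 3 of 7 between the drugs in ZR-75-1, 3 of 4 and 9 of 12 interactions and 22 of 24 differences between the lines. Among counts, members called higher with abemaciclib in CAMA-1 went from 0 to 1 with all 18 libraries in 1 fit and ranged from 0 to 1 with a library left out, and members called higher with palbociclib there went from 1 to 0 in DESeq2 (0 to 1 with a library left out). Members lower with abemaciclib than palbociclib in ZR-75-1 ranged from 3 to 7. Higher abemaciclib interactions went from 3 to 5 with RLE scaling, upper-quartile scaling, DESeq2 or the mitochondrial genes left out (3 to 8 with a library left out), and lower ones from 1 to 0 with no low-count filter (0 to 1). Among medians of the log2 fold change, leaving out a library gave -0.36 to -0.23 for the cap with abemaciclib and -0.47 to -0.33 for the core with palbociclib in CAMA-1, -0.0278 to 0.0380 for the core between the drugs there, -0.0147 to 0.19 for the cap abemaciclib interaction (0.0728 with the mitochondrial genes left out), 0.24 to 0.39 for the cap palbociclib interaction and -0.0698 to 0.0440 for the cap between the lines. The cause of these shifts was not tested. The extremes with CAMA-1 DMSO replicate 3 left out include 8 higher abemaciclib interactions and a core palbociclib median of -0.47.

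Same-numbered libraries did not deviate together (r from -0.0777 to 0.0122 over 18 pairs), which gave no sign of pairing by number but cannot exclude it. With the replicate block, abemaciclib raised 0 members and lowered 21 in CAMA-1, palbociclib raised 1 and lowered 21 there, and in ZR-75-1 they raised 3 and 5 and lowered 16 and 12. Few counts limited PSMA6, which was not tested within a line, and PSMD9, whose palbociclib interaction of 0.86 had a 95% interval of -0.32 to 2.04.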
